A study of Mus musculus with 360 samples.

Results

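Single CD51+;CD200+ cells of the posterior frontal suture (PF), which fuses in early life, were compared with those of the coronal suture (COR), which remains patent for life. The cells came from wild-type CD-1 mice at postnatal day 3, when both sutures are still patent, and the dissected tissue held the osteogenic fronts, the suture mesenchyme and the attached dura mater and periosteum. They were sorted for CD51 and CD200 and against the surface proteins 6C3, CD105, Thy1.1, Thy1.2 and Tie2 and the blood cell proteins CD45 and Ter119, which is how the study isolates skeletal stem and progenitor cells. Cells were kept where 500 or more genes had a read and the total was 10000 reads or more, and 325 cells of all tissues met this. Of these, 161 belonged to this comparison, 87 from PF (34 on plate 1 and 53 on plate 2) and 74 from COR (16 on plate 1 and 58 on plate 2). The tissue of several mice was pooled and no animal is named for any cell, so each suture is 1 sample, no test or p-value could be given, and the 2 plates of a suture are the only measure of spread within it. Every plate held cells of 1 suture, so plate and suture cannot be told apart.

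Cranial sutures are fibrous joints in which bone is added at the edges of the skull plates while the mesenchyme between them stays unmineralized. The PF suture of the mouse lies in bone of neural crest origin and closes through a cartilage intermediate, whereas the COR suture lies on the border between neural crest and mesoderm derived bone. BMP, Wnt, FGF, Hedgehog and Notch signals are known to act on the progenitors of sutures, and mutations of several of their genes cause craniosynostosis, the early fusion of a suture.

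Matrix genes differed between the sutures in both directions. PF cells carried more reads of Fbn2, Col8a1, Epyc, Chad, Fmod and Tnmd, which encode microfibril, short-chain collagen, leucine-rich proteoglycan and tendon proteins, and more of the secreted antagonists Sfrp2 and Chrdl1. COR cells carried more reads of Lrrc15, Tnfaip6, Postn, Tnn, Aspn and Efemp1, and of the Hedgehog inhibitor Hhip and the secreted Wnt antagonist Sfrp4. Genes of the G2 and M phases and of the actin cytoskeleton were more often higher in COR, and imprinted growth genes more often higher in PF, each read against the same count over all genes.

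The median cell held 487767 reads in PF and 632291.5 in COR, and the ribosomal RNA gene Rn45s, left out of every total below, took 26.8% and 26.4% of the summed reads. The median cell had a read of 2512 genes in PF and 3365 in COR. When each cell was thinned to 100000 reads, which left out 17 PF and 3 COR cells, the medians were 2507.5 and 3204, and by plate they were 2340 and 2586.5 in PF against 4008 and 3100 in COR. COR cells therefore showed more genes at equal depth, and the part of this in the differences described here was not tested. Summed reads are given as CPM, the counts divided by the total of the plate or suture and scaled to 1000000, and the precision of a share of cells rests on 16 cells on the smallest plate. In bulk sums of this kind, fewer cells that express a gene and less RNA in each cannot be told apart, so the share of cells with a read stands beside the CPM. A count of 0 cells allows, at 3 cells of the total, a share of up to 3.45% of PF cells and 4.05% of COR cells with a read, which does not limit the share that express the gene.

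A gene was counted as higher in a suture where all 4 ratios of a PF plate to a COR plate had the same sign. The plates of the sutures then did not overlap. With 2 plates per suture, scatter between plates also yields such genes. How many would arise without a difference between the sutures was not tested. Of the 9514 genes with at least 10 CPM in PF or COR, 1388 (14.6%) were higher in PF by this rule and 1693 (17.8%) in COR, 3081 (32.4%) in all, and 6433 had ratios of both signs. The shares of 14.6% and 17.8% are the background for every list count below. The ratio of the summed reads was also at least 2-fold for 517 genes in PF (5.43%) and 605 in COR (6.36%). Of these, 231 in PF (2.43%) and 477 in COR (5.01%) had a read in at least 10% of the cells of each plate of the higher suture and less than 50% of its reads from 1 cell, and genes named below meet both limits unless said otherwise. The median log2 ratio of PF to COR over all genes was 0.03. When values were instead averaged over cells on a log scale, which weights a gene by the cells that have it, 891 genes were higher in PF and 2982 in COR, against 1388 and 1693. With the highest cell of each plate left out gene by gene, 347 of the 517 PF genes and 467 of the 605 COR genes were still of one sign. The median size of the log2 ratio was 0.77 between the PF plates, 0.61 between the COR plates and 0.48 between the sutures, whose sums hold more cells. The Pearson correlation of the log values across genes was 0.718 between the PF plates, 0.794 between the COR plates and 0.773 between the sutures, and 0.692 to 0.759 between a PF and a COR plate, over genes that are not independent replicates. The genes nearest to the 2-fold limit were Nid2 and Rfc3 in PF, with log2 ratios of 1.001 and 0.997, and Ilk and Pus7 in COR, with -1.001 and -0.999.

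Of the 4 genes given with the comparison, Fbn2 and Col8a1 were higher in PF. Fbn2 (18:58168277-58369580 of mm9, minus strand) encodes fibrillin-2, which builds the microfibrils of developing tissues. It was at 136 and 174 CPM on the PF plates and at 5.56 and 6.70 CPM on the COR plates, 25.3-fold higher in PF over the summed reads, with plate log2 ratios of 4.15 to 4.74. A read was found in 41.4% of PF cells and 5.41% of COR cells, and in 38.6% and 5.63% after thinning. Col8a1 (16:57624371-57754850, minus strand) encodes a chain of the short-chain type VIII collagen. It was at 1039 and 564 CPM in PF and at 17.9 and 48.6 CPM in COR, 14.4-fold higher in PF, and was read in 42.5% of PF cells against 9.46% of COR cells.

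Lrrc15 and Tnfaip6 were higher in COR. Lrrc15 (16:30269388-30283342, minus strand) encodes a membrane protein with leucine-rich repeats that is known from mesenchymal cells exposed to TGF-beta. It was at 25.4 and 8.04 CPM on the PF plates and at 268 and 313 CPM on the COR plates, 26.98-fold higher in COR, and was read in 7 of 87 PF cells and 37 of 74 COR cells. Tnfaip6 (2:51893529-51912206, plus strand) encodes a secreted hyaluronan-binding protein. It had 3 reads in 1 PF cell and 2022 reads in 27 COR cells, or 0 and 0.123 CPM on the PF plates against 14.2 and 68.6 CPM on the COR plates, a ratio of 637 with a counting interval of 218 to 3094. The Tnfaip6 interval leaves out the spread of reads over cells, and its PF reads came from 1 cell. The plates of the sutures did not overlap for any of the 4 genes. That is the rule by which genes of this comparison were chosen, so it is no added result.

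**Figure D1:**
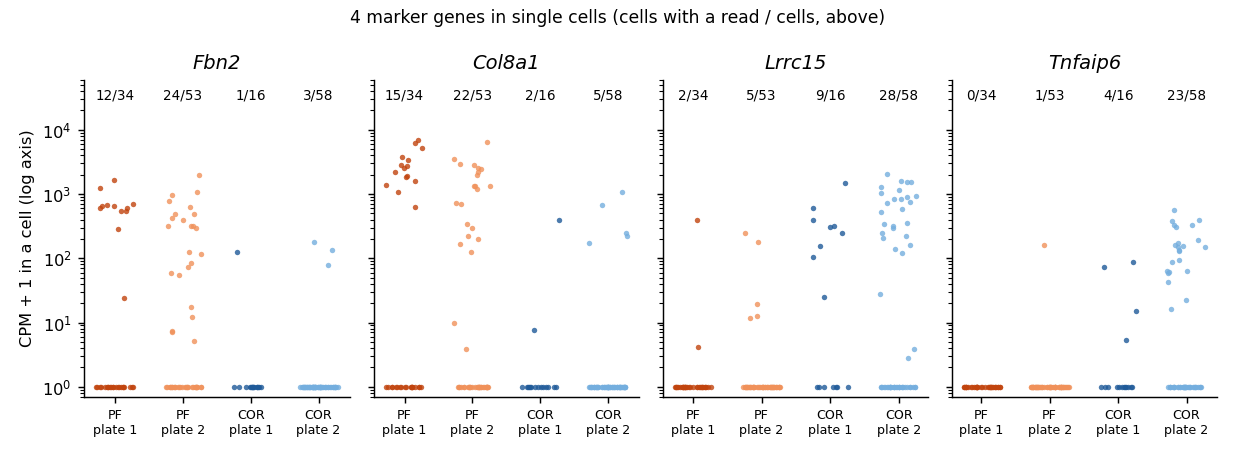
CPM + 1 of Fbn2, Col8a1, Lrrc15 and Tnfaip6 in each cell (points, log axis) by plate, with the number of cells with a read over all cells of the plate above. Cells with a read of Fbn2 and Col8a1 lie mostly on the PF plates and those of Lrrc15 and Tnfaip6 mostly on the COR plates and cells without a read sit at 1 on the axis.

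The PF markers were read in largely the same cells. Of 36 PF cells with Fbn2 reads and 37 with Col8a1 reads, 29 had both, 80.6% of the first and 78.4% of the second, whereas Col8a1 was read in 15.7% of the PF cells without Fbn2. Sfrp2 was read in 34 PF cells, of which 27 also had Fbn2. In COR, 19 cells had both Lrrc15, read in 37 cells, and Tnfaip6, read in 27. Across the 87 PF cells, the genes most like Fbn2 by Spearman correlation of log2(CPM+1) were Bgn (0.724), Mfap4 (0.688) and Thbs2 (0.677), and those most like Col8a1 were Shisa3 (0.797), Igfbp4 (0.747) and Mfap4 (0.738). These cells share plates and differ in depth, so the values are a description. Mfap4 and Shisa3 themselves had plate ratios of both signs between the sutures. Lrrc15 was read in 7 PF cells and had no gene above 0.473, and Tnfaip6 in 1, too few for a likeness. Over the 74 COR cells, a choice made after the values were seen, Lrrc15 was most like Myadm (0.618), Aspn (0.601) and S100a6 (0.599), and Tnfaip6 most like Anxa1 (0.533), Anxa2 (0.529) and S100a10 (0.513).

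In the other tissues of the series, the sagittal suture plates held 10.6 and 106 CPM of Fbn2 and the tibial growth plate 393 and 245. Of Col8a1, the sagittal plates held 74.1 and 559 CPM and the growth plate 770.6 and 570.7 CPM. High values of these 2 genes were thus not particular to PF. For Lrrc15 the same plates held 18.3 and 84.2 CPM and 37.6 and 172 CPM, below both COR plates.

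The 15 genes with the largest gap between the plates of the sutures were, in PF, led by Tbx18, a T-box transcription factor of embryonic mesenchyme. Tbx18 was at 38.9 and 84.7 CPM on the PF plates and listed at 0 on both COR plates. With 3 reads set as the floor of the COR sum it was 809-fold higher in PF. Such a floor covers counting error only and not the uneven spread of reads over cells, so the fold is not a lower limit. Tbx18 was read in 17 of 87 PF cells and in none of 74 COR cells, and 12 of those 17 cells also had Fbn2 reads. Epyc, a cartilage-associated leucine-rich proteoglycan, was at 338 and 136 CPM in PF and at 0 and 22.3 CPM in COR. Epha7, a receptor of ephrin-A ligands, was at 81.7 and 94.6 CPM against 1.85 and 13.8 CPM, 7.30-fold. Chrdl1, a secreted BMP antagonist, was at 215 and 95.4 CPM against 5.56 and 16.3 CPM, 7.79-fold. Epyc was read in 33 of 87 PF and 5 of 74 COR cells, Epha7 in 16 and 8, and Chrdl1 in 30 and 8. The others of the 15 were Fbn2, Col8a1, Abi3bp, Sfrp2, Foxd1, the amino acid transporter Slc38a1, the heparan sulfate epimerase Glce, the aminopeptidase Erap1, Fbxo25, Ogfod3 and 2810408M09Rik. Slc38a1, which carries glutamine into cells, was at 44.1 and 47.1 CPM in PF and at 1.54 and 8.09 CPM in COR.

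The COR genes chosen in the same way were led by genes without a single PF read. Dpt, a dermatopontin that binds decorin and collagen, was at 32.1 and 51.7 CPM on the COR plates, 503-fold over the floor of the PF sum, in 17 COR cells. Efemp1, a fibulin, was at 29.3 and 109.6 CPM in 13 COR cells, 1025-fold over that floor. Hhip, which binds and sequesters Hedgehog ligands, was at 63.3 and 29.6 CPM in 13 COR cells, 334-fold over it. Lrrc8d, a subunit of the volume-regulated anion channel, was at 54.4 and 28.4 CPM in 10 COR cells, 314-fold over it. These folds cover counting error only and are not lower limits of the difference. Dpt and Efemp1 marked partly separate cells and shared 7. Cdh13, a cadherin anchored by a lipid, was at 0 and 0.902 CPM in PF and at 35.8 and 43.8 CPM in COR, 59.2-fold, and was read in 2 PF and 17 COR cells. Plekhg4, Atg10, Sfi1, Pdzrn4, Adcy7, Zfand4 and 2210408I21Rik were also among them, beside Lrrc15 and Tnfaip6, and Pdzrn4 was read in 29.7% of COR cells. On COR plate 1, which held 16 cells, 10% is reached by 2 cells, and Dpt, Efemp1, Plekhg4, Adcy7 and Zfand4 were read there in exactly 2.

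**Figure D2:**
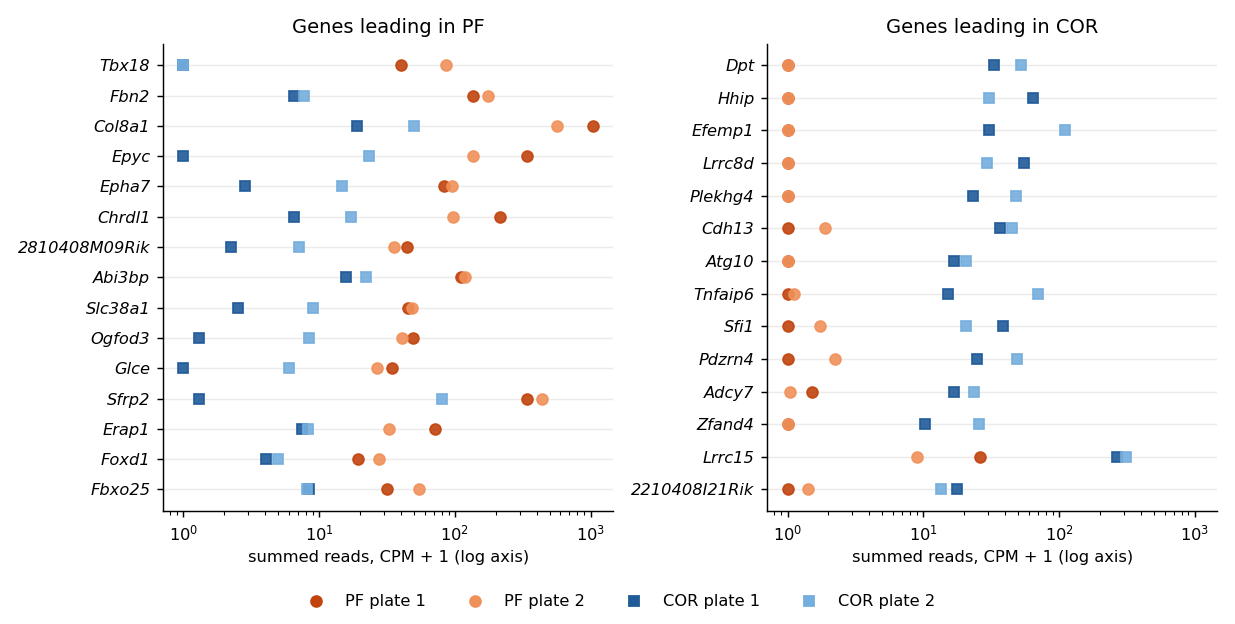
Summed reads as CPM + 1 (log axis) of the genes with the largest gap between plates in each direction, 15 in PF and 14 in COR, with circles for the PF plates and squares for the COR plates. Both circles lie to the right of both squares for every gene on the left panel, and to the left of them on the right panel, where 7 genes sit at 0 CPM on both PF plates.

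Elastic fibre and microfibril genes were more often higher in PF, 7 of 22 measured members against 14.6% of all genes, and 2 were higher in COR, with a median log2 ratio of 0.45. Beside Fbn2, the PF members were Fbln2, a fibulin of microfibrils, at 199.8 and 152 CPM against 54.7 and 51.01 CPM in COR, 3.14-fold. Adamtsl4 and Adamts10, which bind fibrillin-1 and bear on microfibril assembly, were 3.24-fold and 2.47-fold higher in PF, and Fbn1, fibrillin-1 itself, was at 261 and 173 CPM against 52.2 and 138 CPM, 1.47-fold. In the other direction stood Efemp1 and Thsd4, a fibrillin-1 binding protein at 21.5 and 35.5 CPM in PF against 43.2 and 61.7 CPM in COR. Both fibrillin genes were thus higher in PF while 2 of the proteins that associate with microfibrils were higher in COR.

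Small leucine-rich proteoglycans, which coat collagen fibrils and set their spacing, were split within the family. Of 13 measured, 6 were higher in PF and 3 in COR, and the median was 0.49. Fmod, fibromodulin, was at 3326 and 2642 CPM in PF and at 1197 and 1279 CPM in COR, 2.18-fold, and Ogn, osteoglycin, at 1129 and 1113 CPM against 434 and 709 CPM. Chad, chondroadherin, was at 581 and 222 CPM against 12.7 and 75.9 CPM, with 68.2% of its COR reads in 1 cell. Aspn, asporin, ran the other way, at 418 and 619.8 CPM in PF and at 1550.4 and 2274 CPM in COR, 3.79-fold, and was read in 56.3% of PF and 79.7% of COR cells. Omd, osteomodulin, was at 125 and 165 CPM against 452 and 441 CPM, 2.80-fold, with 46.4% of its COR reads in 1 cell, and Podnl1 was 2.55-fold higher in COR. The genes of this family that were higher in PF were not read in one set of cells: Epyc was read in 33 PF cells and Chad in 18, and 6 had both.

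Collagen genes differed in both directions. The chains of type I collagen, the main fibre of bone and tendon, were a little higher in PF. Col1a1 was at 112520 and 75393 CPM against 72989 and 62253 CPM, and Col1a2 at 66256 and 53760 CPM against 48269 and 42322 CPM, 1.30-fold and 1.31-fold. Both were lower in PF when values were averaged over cells on the log scale, with differences in mean log2 value of -0.31 and -0.01. Col3a1 and Col5a1, chains of the type III and type V collagens that regulate the width of type I fibrils, were higher in COR, with Col3a1 at 11061 and 10158 CPM against 13625 and 17510 CPM, and Col5a1 at 495 and 523 CPM against 975 and 799 CPM. The other type V chains had ratios of both signs, with log2 ratios of 0.06 for Col5a2 and 0.81 for Col5a3, named after their values were seen. The chains Col6a1, Col6a2 and Col6a3 of the beaded-filament collagen VI were higher in COR as well, with log2 ratios of -0.93 for Col6a1, -0.57 for Col6a2 and -1.05 for Col6a3. Basement membrane collagen IV was higher in PF, where Col4a2 was at 144 and 150.3 CPM against 26.3 and 74.2 CPM and Col4a1 at 225 and 172 CPM against 22.9 and 119 CPM. Col8a2, the partner chain of Col8a1, was 2.33-fold higher in PF, although the share of cells with a read was alike, 43 of 87 in PF and 37 of 74 in COR. In counts, 3 of 11 fibrillar collagens were higher in PF and 2 in COR, and 5 of 19 other collagens in PF and 3 in COR.

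The enzymes that fold, trim and crosslink collagen showed 6 of 33 in each direction, near the background of all genes. Members of 1 family could differ in sign. Of the lysyl oxidases, which crosslink collagen and elastin, Loxl1 was at 387 and 464 CPM in PF against 148 and 260.0 CPM in COR, and Loxl2 at 77.4 and 34.2 CPM in PF against 141 and 116 CPM in COR. Of the procollagen N-proteinases, Adamts2 was 1.63-fold higher in PF, whereas Adamts3 and Adamts14 were 1.39-fold and 1.67-fold higher in COR. Loxl1 and Loxl2 therefore had opposite signs, with no overlap between plates for either.

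Matricellular glycoproteins, which act on cells more than on the strength of the matrix, differed strongly in both directions. Postn, periostin, was at 1352 and 855 CPM in PF and at 4185 and 6331 CPM in COR, 6.42-fold, and was read in 60.9% and 90.5% of cells. Tnn, tenascin-W, was at 146 and 71.2 CPM against 483 and 1029 CPM, 11.4-fold, and every one of the 46 COR cells with Tnn reads also had Postn reads. Ecm1 and the integrin ligand Npnt, nephronectin, were 4.58-fold and 3.85-fold higher in COR. PF members were Abi3bp, at 109 and 118 CPM against 14.8 and 21.2 CPM, the cartilage protein Matn4, at 239.7 and 647 CPM against 11.4 and 202 CPM, and Egfl6 and Ctgf, at 2.31-fold and 2.17-fold. The list had 7 of 33 members higher in PF and 6 in COR, so that its count lay near the background and its large ratios lay on both sides.

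**Figure D3:**
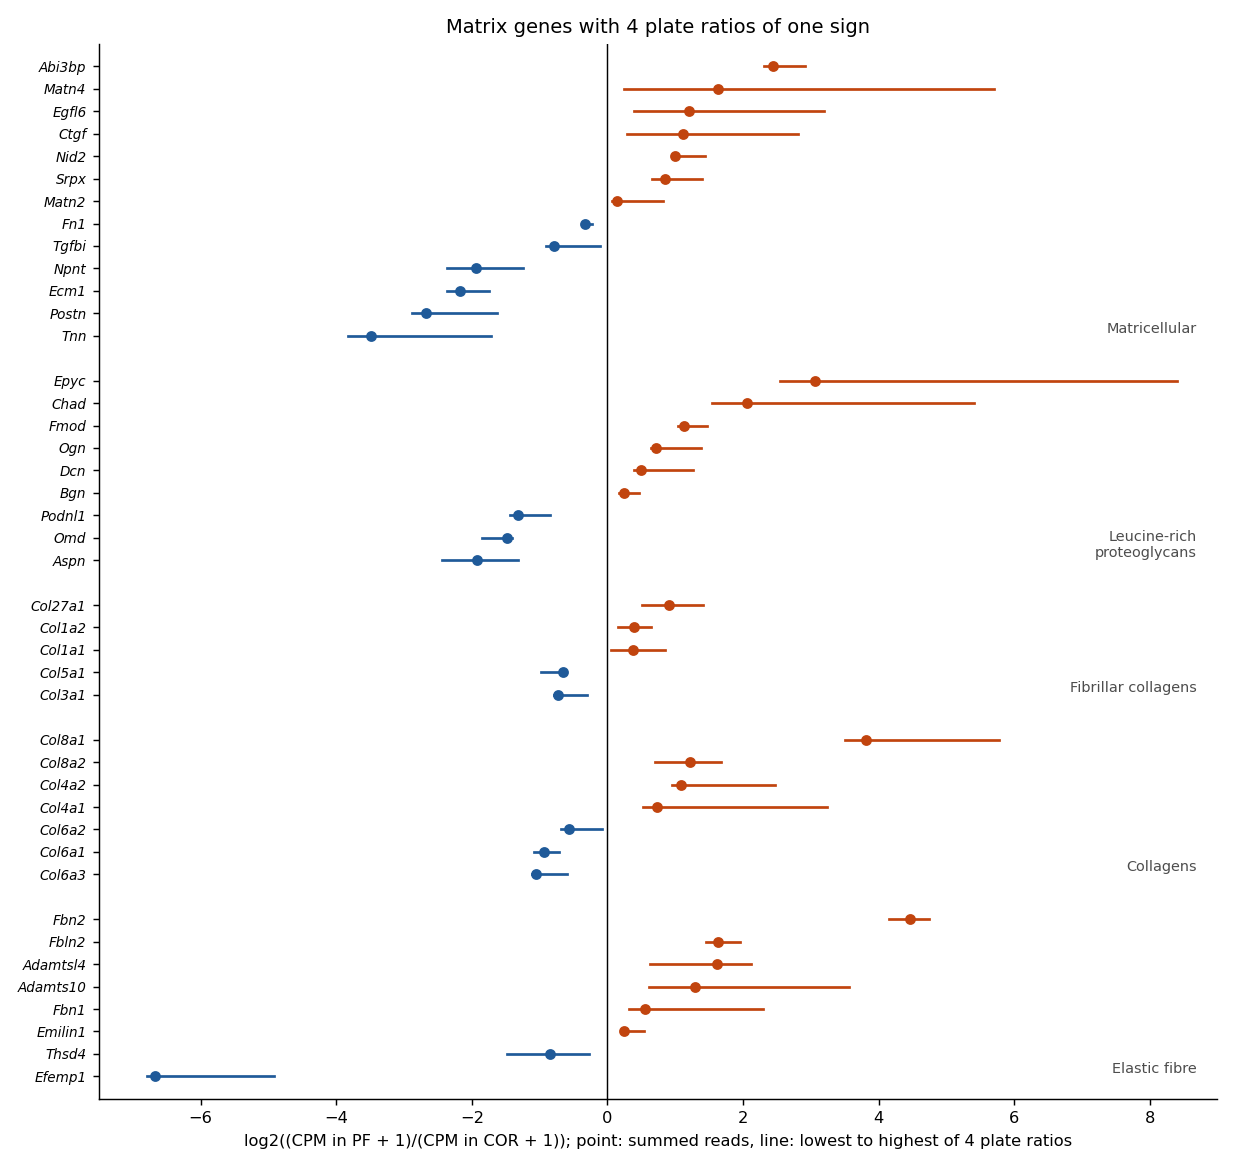
Log2 ratios of PF to COR for matrix genes whose 4 plate ratios had one sign and whose reads were spread over cells, with a point for the summed reads and a line from the lowest to the highest plate ratio. Values right of 0 (red) are higher in PF and left of 0 (blue) higher in COR, and fibrillins, type IV and VIII collagen lie right while Col3a1, Col5a1, type VI collagen, periostin and tenascin-W lie left.

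Hyaluronan genes gave 5 of 29 in each direction, near the 14.6% and 17.8% of all genes. Cd44, the main hyaluronan receptor, was at 123 and 100.5 CPM in PF and at 231 and 384 CPM in COR, 3.51-fold, and was read in 27 of 87 PF and 49 of 74 COR cells. Hapln1, which links hyaluronan to aggrecan, was 2.33-fold higher in COR. Ptx3, a pentraxin that binds Tnfaip6 in the hyaluronan matrix, was higher in PF instead, at 188 and 51.4 CPM against 15.8 and 22.6 CPM. Among proteases and their inhibitors, 6 of 38 were higher in PF, among them the cathepsin inhibitor Cst3, 2.08-fold, and the membrane inhibitor Reck, 1.77-fold, and 4 were higher in COR, among them the urokinase receptor Plaur, 3.92-fold, with Timp1 and Timp2 at 1.48-fold and 1.59-fold. Integrin, laminin and cadherin genes gave 7 of 34 in PF and 4 in COR, with Icam1 2.51-fold and Lamb2 1.88-fold higher in PF, and Itgb1, the common beta chain of collagen and fibronectin receptors, at 771 and 689 CPM against 1073 and 1010.0 CPM.

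Signalling genes are given in the order of ligands and antagonists, receptors and targets. In the BMP pathway, 6 of 24 measured genes were higher in PF and 5 in COR, beside 14.6% and 17.8% of all genes. The ligand gene Bmp8a was at 4.73 and 4.72 CPM in PF and at 23.5 and 46.8 CPM in COR, 9.42-fold, in 3 PF and 8 COR cells. The antagonists Chrdl1 and Fstl1 were higher in PF, the latter 1.40-fold, and the decoy receptor Bambi was higher in COR, at 84.9 and 63.8 CPM against 186 and 128 CPM. The type I receptor gene Acvr1 was 2.44-fold higher in PF with a like share of cells, 20.7% and 20.3%. The transducer Smad1 was 2.19-fold higher in COR. Targets were divided, with Id3 1.34-fold higher in PF and Id1 2.29-fold higher in COR, read in 10.3% of PF and 31.1% of COR cells. Genes of TGF-beta signalling gave 6 of 21 in PF and 3 in COR. The receptor gene Tgfbr1 was at 6.26 and 24.2 CPM in PF against 30.9 and 47.7 CPM in COR, and Smad2, a transducer of this branch, at 49.9 and 61.4 CPM against 31.5 and 30.001 CPM.

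Of the measured Wnt genes, 11 of 40 were higher in PF and 7 in COR, beside 14.6% and 17.8% of all genes, with a median of 0.44. Among the secreted inhibitors, Sfrp2 was at 338 and 441 CPM in PF and at 0.309 and 78.9 CPM in COR, 5.94-fold, and was read in 39.1% of PF and 13.5% of COR cells. Sfrp4, of the same family of frizzled-related Wnt binders, was at 60.5 and 12.3 CPM in PF and at 1811 and 271 CPM in COR, 19.7-fold, and 41.6% of its COR reads came from 1 cell. Without the highest cell of each plate the Sfrp4 log2 ratio was -4.08, against -4.24 with them. Kremen1, a receptor of Dkk inhibitors, was 3.93-fold higher in COR, in 13.8% of PF and 45.9% of COR cells. Among receptors, the co-receptor Lrp5 was at 7.78 and 16.1 CPM in PF against 0.618 and 4.17 CPM in COR, and Fzd2 was 1.48-fold higher in PF. Ror2, a Wnt5a receptor, was 2.18-fold higher in COR. Fzd5 was at 0.338 and 0.984 CPM in PF against 5.87 and 11.4 CPM in COR, 12.6-fold. Its summed COR value of 10.8 CPM lay just above the 10 CPM minimum. Fzd5 was read in 5 PF and 8 COR cells, with 40.9% of its COR reads from 1 cell. Axin2, a direct Wnt target and suture stem cell marker named here after its values were seen, was at 0.169 and 1.68 CPM in PF and at 0.618 and 6.60 CPM in COR, under the 10 CPM minimum.

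Hedgehog, Notch and retinoic acid genes were few. None of 12 measured Hedgehog and PTHrP genes was higher in PF, beside 14.6% of all genes, with a median of -0.32. In COR 3 were higher, beside 17.8% of all genes. These were Hhip, the transcription factor gene Gli3, at 11.2 and 16.8 CPM against 83.7 and 28.5 CPM, and the inhibitor Sufu, 1.24-fold, which was higher in PF when each cell had equal weight or was thinned (log2 ratios 0.67 and 0.63). Gli1, the usual readout of the pathway, had ratios of both signs at 0.507 and 13.2 CPM in PF and 8.03 and 23.7 CPM in COR. Of 8 Notch genes, 3 were higher in PF and 1 in COR. The ligand gene Jag1 was at 62.6 and 100.1 CPM in PF and at 1.54 and 28.9 CPM in COR, 3.55-fold. The target Hey1 was at 0 and 2.67 CPM in PF and 12.04 and 28.4 CPM in COR, so these 2 genes had opposite signs. Hey1 was read in only 2 PF and 9 COR cells, with 81.5% of its PF and 30.3% of its COR reads from 1 cell. Of 13 retinoic acid genes, 1 was higher in PF and 3 in COR, among them the nuclear receptor partners Rxra and Rxrb, 3.21-fold and 3.22-fold higher in COR. FGF genes gave 4 of 14 in PF and 3 in COR, and the receptors Fgfr1 and Fgfr2, both genes of human craniosynostosis, differed little, at 1.34-fold higher in PF and 1.18-fold higher in COR, and Fgfr1 turned to -0.03 on the log scale over cells.

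Guidance genes such as ephrins and semaphorins steer cells and keep tissue borders. They gave 10 of 42 higher in PF and 4 in COR, beside 14.6% and 17.8% of all genes, with a median of 0.43. Without the highest cell of each plate the guidance counts were 7 and 6. Epha7 led them, and Epha3, another ephrin-A receptor, was at 139 and 133 CPM against 3.40 and 51.6 CPM, 2.87-fold. Ephb2 was 2.06-fold and the ligand Efna2 1.67-fold higher in PF. The ligand Efnb2, by contrast, was 1.47-fold higher in COR, and Sema3d and the semaphorin receptor gene Plxna2 were 3.45-fold and 4.25-fold higher there.

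Transcription factors of cranial mesenchyme showed 7 of 31 in each direction. Foxd1, known from meningeal and stromal mesenchyme, was at 18.43 and 26.6 CPM in PF against 3.09 and 3.99 CPM in COR, and 7 of the 17 PF cells with Foxd1 reads had Tbx18 reads. Tbx15 and Alx4, which pattern the skull and skin, were 1.91-fold and 1.68-fold higher in PF. Dlx5, a homeobox factor that promotes osteoblasts, was at 132.5 and 41.99 CPM in PF and at 198 and 156 CPM in COR, 2.69-fold, and was read in 21.8% of PF and 58.1% of COR cells. Eya1 was 4.55-fold and Tcf12, a partner of Twist1 and a gene of human coronal craniosynostosis, 1.78-fold higher in COR. Twist1 and Msx2, named after their values were seen, had ratios of both signs, with Twist1 at 18.1 and 24.1 CPM in PF and 25.02 and 18.3 CPM in COR. Across 33 genes of craniosynostosis, 7 were higher in PF and 8 in COR. That list holds genes the study selected on samples of these sutures, Jag1 among them, so its count is not independent evidence of direction. In its bulk RNA sequencing and RT-PCR the study reported Jag1 as lower in PF cells only. The summed single-cell reads of Jag1 here ran the opposite way, higher in PF.

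Of the osteoblast genes, 5 of 37 were higher in PF and 4 in COR, neither above the 14.6% and 17.8% of all genes. Their median was 0.19. Averaged over cells on the log scale, 11 were higher in COR, and on that scale with thinned cells 1 was higher in PF. Runx2 and Sp7, the transcription factors that commit cells to bone, were at 53.1 and 56.2 CPM against 125 and 84.9 CPM, and at 237 and 229 CPM against 574 and 248 CPM, so both were higher in COR, 1.60-fold and 1.22-fold, although Runx2 had a log2 ratio of 0.20 toward PF when each cell had equal weight. Sp7 was read in 35.6% of PF and 59.5% of COR cells. Slc36a2, a proline and glycine transporter of osteoblasts, was higher in PF, at 417 and 237 CPM against 166 and 55.5 CPM, and Cadm1, an adhesion molecule of osteoblasts, was 2.27-fold higher there. The mature osteoblast genes Spp1 and Bglap, named after their values were seen, had ratios of both signs. Bglap, osteocalcin, was at 37.4 CPM on COR plate 1 and at 1294 to 1443 CPM on the others, and 51.7% of its COR reads came from 1 cell. Bglap has near-identical copies in the genome that may share reads.

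Tendon and ligament genes were more often higher in PF, 5 of 20 against 1 in COR, beside 14.6% and 17.8% of all genes. Their median was 0.66. Tnmd, tenomodulin, a membrane protein of tendon cells, was at 311 and 315 CPM in PF and 76.3 and 84.1 CPM in COR, 3.78-fold, and was read in 41.4% and 20.3% of cells. Cpxm2 was 3.33-fold higher in PF, and Fmod and Chrdl1 also belong to this list. Scx, the transcription factor of tendon progenitors, was the COR member at 6.26 and 9.47 CPM in PF against 25.3 and 9.51 CPM in COR, a margin of 0.01 on the log2 scale in its closest plate pair. Of the 36 PF cells with Tnmd reads, 24 had Fbn2 reads and 16 had Chrdl1 reads.

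Of the markers of skeletal and suture stem cells, 6 of 25 were higher in PF and 4 in COR, and 8 were higher in COR when averaged over cells on the log scale. The chemokine gene Cxcl12 was at 556 and 661 CPM in PF and 1.85 and 395 CPM in COR, read in 50.6% of PF and 28.4% of COR cells, and Ctsk, a marker of periosteal stem cells, was 1.57-fold higher in PF. Ly6a and Prrx2 were 2.78-fold and 1.56-fold higher in COR, and Ly6a was read in 2 PF and 8 COR cells. Six2, named after its values were seen, was at 26.03 and 28.8 CPM in PF and at 15.4 and 29.8 CPM in COR.

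Actin and contractile genes were among the lists with the most COR members. Of 50 measured, 22 were higher in COR against 17.8% of all genes, 8 were higher in PF, and the median was -0.17. Vim, vimentin, was at 744 and 611 CPM in PF and at 1773 and 2362 CPM in COR, 3.62-fold. Tagln2, transgelin-2, was at 307 and 147 CPM against 519.8 and 674 CPM, 3.68-fold, and was read in 42.5% of PF and 78.4% of COR cells. Vasp, which extends actin filaments, was 2.95-fold higher in COR. The PF members were led by the myosin light chain gene Myl9, at 510.0 and 662 CPM against 148 and 225 CPM, and included Mylk, the kinase that acts on it, 1.60-fold, and Myh10, a nonmuscle myosin heavy chain, 1.34-fold. The other 20 members had ratios of both signs. Without the highest cell of each plate, 21 of these members were higher in COR and 5 in PF.

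G2 and M phase genes had no member higher in PF and 19 of 46 higher in COR, 14 of them at least 2-fold, with a median of -1.07, and 4 were higher in PF when cells under 1500 genes or 50000 reads were left out. Mki67, which coats mitotic chromosomes, was at 17.6 and 16.3 CPM in PF and at 84.9 and 69.2 CPM in COR, 4.28-fold, and was read in 4 PF and 12 COR cells. Birc5, survivin, was at 11.5 and 7.79 CPM against 35.5 and 58.96 CPM, 6.65-fold. Anln, anillin of the cleavage furrow, was at 3.55 and 6.89 CPM against 12.97 and 61.8 CPM, 9.12-fold, with 38.7% of its COR reads from 1 cell. Ccnb2, a mitotic cyclin named after its values were seen, was at 42.6 and 14.4 CPM against 83.1 and 73.6 CPM, and 11 of the 12 COR cells with Mki67 reads had it. These genes therefore rested on a small set of cells in each suture. Cells with a read of at least 10 of the 57 listed genes were 6 of 87 in PF (6.90%, exact 95% interval 2.57 to 14.4) and 14 of 74 in COR (18.9%, 10.7 to 29.7), or 5.71% and 18.3% after thinning. They were 3 of 34 and 3 of 53 cells on the PF plates and 4 of 16 and 10 of 58 on the COR plates. The exact 95% intervals of these plate shares overlapped. They were 1.86 to 23.7% and 1.18 to 15.7% in PF, and 7.27 to 52.4% and 8.59 to 29.4% in COR. With at least 20 genes as the limit, 3 PF and 9 COR cells remained. The 1 highest cell gave 41.8% of the list's reads in PF and 17.1% in COR. Of the S phase genes, 5 of 40 were higher in PF and 7 in COR, among the latter Mcm3, 3.11-fold, and Tyms, 2.15-fold.

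**Figure D4:**
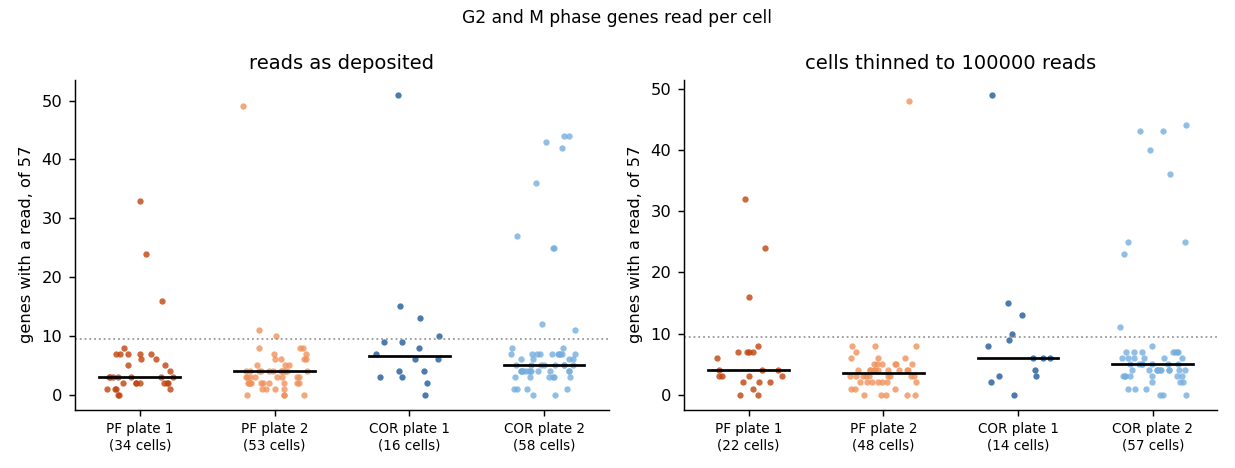
Number of the 57 listed G2 and M phase genes with a read in each cell (points) by plate, with a black line at the plate median and a dotted line just under the limit of 10 genes, for the reads as deposited (left) and after thinning to 100000 reads (right). A few cells on every plate rise far above the rest, 6 of 87 PF cells and 14 of 74 COR cells above the dotted line on the left.

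Promoters of cell cycle and contractile genes are shown because their members differed together and because their control is known from other work to run through short promoter motifs. The windows cover 250 bases before to 50 after the start of each gene, from RefSeq on GRCm38.p6, a later build than the mm9 of the counts, and 42 of the 46 measured G2 and M phase genes had one. Capitals mark the cell cycle homology region motif (CHR, TTTGAA) and the CCAAT box (CCAAT), searched on both strands, which do not overlap in these windows. Mki67 is at 7:135716330-135716629, Anln at 9:22389157-22389456 (CHR only) and Ccnb2 at 9:70421505-70421804, all on the minus strand and written 5′ to 3′.
Mki67: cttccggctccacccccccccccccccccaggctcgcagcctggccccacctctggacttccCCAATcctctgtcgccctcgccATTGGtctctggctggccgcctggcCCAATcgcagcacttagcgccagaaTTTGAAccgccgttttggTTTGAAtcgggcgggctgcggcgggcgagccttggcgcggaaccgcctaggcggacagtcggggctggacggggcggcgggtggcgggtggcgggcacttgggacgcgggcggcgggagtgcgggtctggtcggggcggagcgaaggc
Anln: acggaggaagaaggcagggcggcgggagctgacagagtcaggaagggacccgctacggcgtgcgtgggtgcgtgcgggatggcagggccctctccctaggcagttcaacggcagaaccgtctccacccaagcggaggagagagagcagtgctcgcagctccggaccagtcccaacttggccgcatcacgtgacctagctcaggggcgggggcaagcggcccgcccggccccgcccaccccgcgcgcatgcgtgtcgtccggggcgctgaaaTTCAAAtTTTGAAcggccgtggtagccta
Ccnb2: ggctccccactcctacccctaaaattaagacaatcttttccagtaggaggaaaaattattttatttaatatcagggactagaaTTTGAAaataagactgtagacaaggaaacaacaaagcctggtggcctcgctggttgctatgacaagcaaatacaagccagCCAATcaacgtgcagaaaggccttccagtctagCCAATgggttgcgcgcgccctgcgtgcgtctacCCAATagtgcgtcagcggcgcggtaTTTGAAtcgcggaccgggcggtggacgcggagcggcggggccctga

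The CHR letters were in 29 of the 42 windows of measured G2 and M phase genes (69.1%), in 11 of the 17 windows of members higher in COR (64.7%), in 11.2% of 7289 windows of all genes tested and in 18.1% of 27025 windows of all genes. The CCAAT letters were in 32 of 42 (76.2%), 12 of 17 (70.6%), 38.96% of the tested and 37.9% of all windows. Members higher in COR and the list as a whole therefore held these letters at like shares. Other motifs, and the windows of cholesterol genes, were searched too and are not all given. For the contractile genes, the CArG box (CCWWWWWWGG, with W for A or T) was in 5 of 42 windows (11.9%) and in 2 of 20 of those higher in COR. It was in 1.19% of the tested and in 1.57% of all windows. The letters GGAATG, bound by TEAD factors, were in 13 of the 42 contractile windows, in 6 of 20 of those higher in COR, in 11.6% of the tested and in 14.6% of all windows. Tagln2, at 1:172499996-172500295 on the plus strand, holds them 2 times on the opposite strand, in capitals:
Tagln2: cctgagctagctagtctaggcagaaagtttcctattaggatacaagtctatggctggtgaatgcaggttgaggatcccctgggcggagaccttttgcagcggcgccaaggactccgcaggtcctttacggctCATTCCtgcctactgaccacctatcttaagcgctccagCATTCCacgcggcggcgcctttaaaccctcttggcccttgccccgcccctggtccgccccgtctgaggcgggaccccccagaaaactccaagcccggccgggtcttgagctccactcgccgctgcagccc

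Synthesis of cholesterol and fatty acids gave 9 of 34 genes higher in COR and 2 in PF, with a median of -0.20. The COR count was 24 on the log scale over cells, 18 on that scale with thinned cells, and 5 at a minimum of 50 CPM. Scd1, which desaturates fatty acids, was at 8.28 and 14.5 CPM in PF against 57.4 and 42.2 CPM in COR, 3.29-fold, and Insig1, Sqle and Fdps, a sensor and 2 enzymes of sterol synthesis, were 2.45-fold, 2.26-fold and 2.05-fold higher in COR. Scap, the escort of the factor that activates these genes, was 3.97-fold higher in PF, at 86.7 and 70.05 CPM against 22.2 and 18.1 CPM. Glycolysis and hypoxia genes gave 8 of 35 in COR and 3 in PF, and 17 in COR when averaged over cells on the log scale, with Pfkm, a phosphofructokinase, 4.64-fold and the lactate exporter Slc16a3 2.29-fold higher in COR, and the related carrier Slc16a1 1.42-fold higher in PF.

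Cytokine and inflammatory genes were more often higher in PF, 10 of 29 against 3 in COR, beside 14.6% and 17.8% of all genes. Their median was 0.78. The summed reads of the list ran the other way, 33968 CPM in PF and 53437 CPM in COR, with 29.7% of the COR reads from 1 cell. Il33, an alarmin, was at 96.7 and 168 CPM in PF and 11.1 and 67.6 CPM in COR, 2.495-fold. Serping1, the inhibitor of complement C1, was at 321 and 363 CPM against 70.1 and 159 CPM, and Il6st, the shared receptor of interleukin-6 cytokines, at 147 and 214 CPM against 59.3 and 94.3 CPM. Cxcl12 and Icam1 also belong to this list. Tnfrsf12a, the receptor of TWEAK, was 2.64-fold higher in COR, in 13.8% of PF and 43.2% of COR cells. Interferon response genes stayed near the background, at 4 of 23 in PF and 3 in COR.

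Imprinted growth genes had the highest share of PF members of the lists with at least 12 measured genes, 8 of 17 against 1 in COR, with a median of 0.47. Meg3 and Rian, noncoding RNAs of one imprinted cluster, were at 57.1 and 127 CPM against 10.8 and 39.5 CPM, and at 9.97 and 22.2 CPM against 1.24 and 3.99 CPM, 3.10-fold and 5.33-fold. Plagl1, a zinc finger factor, was at 253 and 321 CPM against 92.03 and 158 CPM, and Gnas, the stimulatory G protein gene, was 1.83-fold higher in PF and read in nearly every cell. Igf2 was 1.55-fold higher in PF. Igf2r, the receptor that clears Igf2, was the COR member, at 65.3 and 62.4 CPM in PF against 142 and 109 CPM in COR. Adipogenic genes, of which 9 were measured, gave 4 in PF and 1 in COR. Ebf1, a factor of early adipogenic and stromal cells, was 4.37-fold and Apoe 3.46-fold higher in PF, with 48.4% of the Apoe reads of PF from 1 cell, and Fabp5 was 1.85-fold higher in COR.

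Of the ion channels and transporters, 10 of 41 were higher in PF and 2 in COR by summed reads, but 5 in PF and 10 in COR when averaged over cells on the log scale, so the direction of the list turned with the weighting. They included the calcium channel Trpv4, at 41.4 and 26.2 CPM against 22.9 and 2.43 CPM, the arginine transporter Slc7a2, 4.85-fold, and the potassium channel Kcnk1, 2.93-fold, while Slc7a1, which carries the same amino acids as Slc7a2, was 2.39-fold higher in COR. Growth factor and hormone receptor genes gave 8 of 34 in PF and 5 in COR. Of the related heparin-binding growth factors, Mdk was 1.75-fold higher in PF and Ptn was higher in COR, at 559 and 543 CPM against 882 and 1399 CPM. Npr2, the C-type natriuretic peptide receptor, was 3.36-fold higher in COR.

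Lists that can follow handling of cells had counts near or below the 14.6% and 17.8% of all genes by summed reads. Immediate early genes, which digestion of tissue is known to induce, gave 7 of 34 in COR and 4 in PF, with Junb 3.16-fold and Socs3 2.58-fold higher in COR. Heat shock and chaperone genes gave 4 of 36 in PF and 5 in COR. Endoplasmic reticulum folding genes gave 8 of 60 in PF and 4 in COR, none at least 2-fold, but averaged over cells on the log scale 2 were higher in PF and 28 in COR. Cytoplasmic ribosomal protein genes gave 0 of 77 in PF and 5 in COR. Their summed ratios leaned to PF in 60 and to COR in 17, with a median of 0.13. Rpl4 and Rplp0, the most read of the ribosomal ones that had one sign, were 1.12-fold and 1.13-fold higher in COR. Respiratory chain genes gave 3 of 74 in PF and 4 in COR, and 14 were higher in PF with TMM scaling. Their summed ratios leaned to PF in 60 and to COR in 14, with a median of 0.24. Proteasome subunits gave 3 of 33 in PF and 6 in COR. Splicing and chromatin genes gave 8 of 51 and 5, among them Ddx17, 2.46-fold higher in PF, and the deacetylase gene Hdac2, 1.99-fold higher in COR, and on the log scale over cells the counts turned to 3 in PF and 15 in COR. Lysosomal genes gave 6 of 36 in each direction, but 15 in COR on the log scale over cells. On that scale heat shock genes gave 14 and proteasome subunits 19 in COR.

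**Figure D5:**
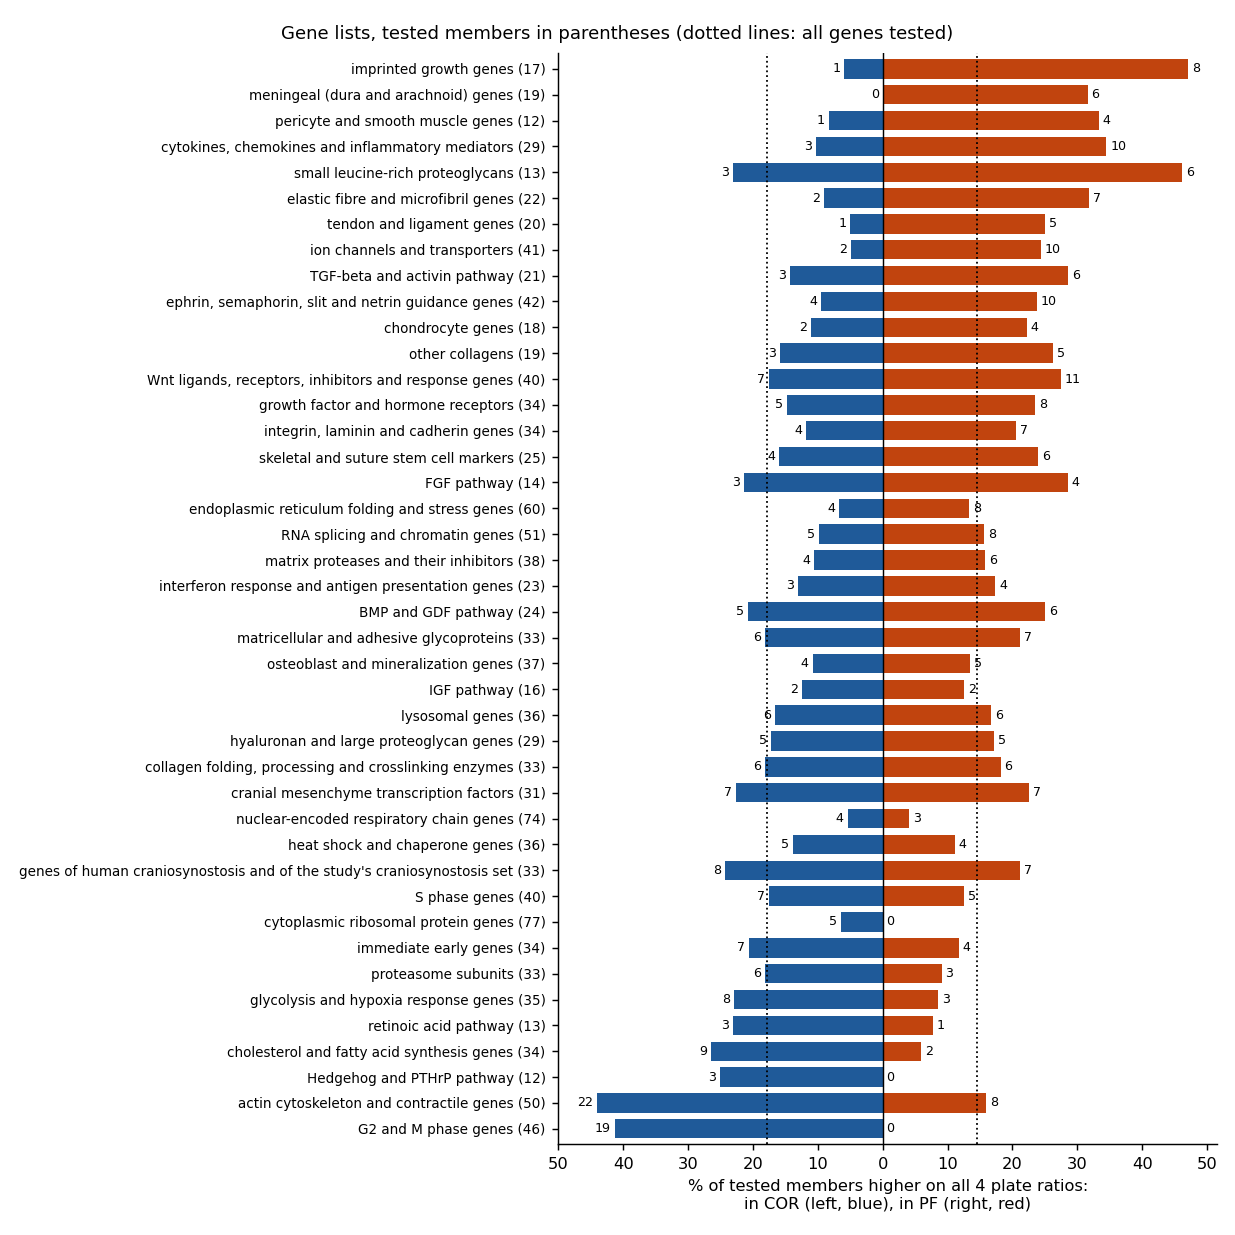
Share of the measured members of each gene list with at least 12 measured genes (number in parentheses) that were higher on all 4 plate ratios in COR (blue, left) or in PF (red, right), with counts at the bar ends and dotted lines at the shares of all genes tested, 17.8% and 14.6%. G2 and M phase and actin genes reach furthest to the left with 19 and 22 members, and imprinted and small leucine-rich proteoglycan genes furthest to the right with 8 and 6.

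Markers of the sort and of other cells were read beside these results. Itgav, the gene of CD51, was at 68.3 and 94.7 CPM in PF and at 122 and 86.8 CPM in COR, and Cd200 at 159.6 and 184 CPM against 239 and 129 CPM, with overlapping plates. Pecam1, Tek, Emcn and Cldn5, defining endothelial genes, were listed at 0 in all cells, and the whole endothelial list of 20 genes summed to between 42.9 and 165 CPM per plate. Of this list, 9 genes were at 0 in PF and 13 in COR, and 44.8% of PF and 48.6% of COR cells had a read. Cd34 was at 26.4 CPM in 11 PF cells and at 59.4 CPM in 16 COR cells. Esam was at 17.7 CPM in PF, with 99.8% of its reads from 1 cell, and at 0 in COR. Of 33 haematopoietic and osteoclast genes, 23 were at 0 in PF and 22 in COR, and the sums ran from 29.6 to 141 CPM. Among them Acp5 was at 83.4 CPM in 20 PF cells and at 37.2 CPM in 15 COR cells, with ratios of both signs. Skeletal muscle and hindlimb position genes had no member at 10 CPM.

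Meningeal genes moved with the comparison. Of 19 measured, 6 were higher in PF and none in COR, beside 14.6% and 17.8% of all genes, with a median of 0.66. The 26 listed genes summed to 2872 and 3084 CPM on the PF plates and to 752 and 2213 CPM on the COR plates. The members higher in PF included Tbx18, Foxd1, Ogn and the ion transport regulator Fxyd1, so these are the same reads that are described above for transcription factors and proteoglycans. The defining transporters Slc6a13 and Slc22a6 were at 0 in every cell, and 5 of the listed genes were at 0 in PF and 9 in COR. The dura mater was part of the dissected tissue, and the part of meningeal cells in the differences was not tested. Chondrocyte genes gave 4 of 18 in PF and 2 in COR, beside the same shares of all genes, with a median of 0.67. Sox9 and Acan, their defining genes named after the values were seen, had ratios of both signs, and Col2a1 was at 1.18 and 58.7 CPM in PF and 0.309 and 2.26 CPM in COR with 63.7% of its PF reads in 1 cell. Pericyte and smooth muscle genes gave 4 of 12 in PF and 1 in COR, with a median of 0.92 that was 0.26 without the highest cell of each plate, and 1 PF cell gave 36.9% of the reads of the list. Of the neural and glial reads, 1 cell gave 60.7% in PF and 35.4% in COR, and the growth-cone gene Gap43 was 3.57-fold higher in PF.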

How the data were processed

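Single cells were sorted into plates, full-length cDNA was amplified in the SMART-seq2 manner and paired-end libraries were sequenced. The deposited values are raw read counts per gene and cell, made by the authors with alignment to mm9, for which the submitters' processing notes name STAR 2.5.3a, HTSeq, R 3.4.4 and Seurat 2.3.0. Which annotation was counted, and whether by strand, is not given in the sources used here, so overlapping and near-identical genes are uncertain. Reads carried no molecular identifiers, and intervals and floors therefore cover counting error only.

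From the 8 tables, cells with at least 500 genes and 10000 reads were summed by plate and suture, leaving out Rn45s, and scaled to CPM. Ratios are log2((CPM + 1)/(CPM + 1)) for genes with at least 10 CPM in PF or COR. Folds are ratios of CPM without the added 1. Where a suture had no read they are values over a floor of 3 reads in that suture's sum, which covers counting error only. Intervals of shares are exact Clopper-Pearson 95% intervals. The genes named were the 4 markers, the 15 with the largest smallest plate ratio in each direction among 2-fold genes read in at least 10% of cells of each plate of the higher suture with under 50% of reads from 1 cell, and up to 4 per list and direction by size among those so spread. Other genes are named too. Not all of them carry the statement that they were chosen after their values were seen. The members and the 52 gene lists were chosen with earlier results of these data known. Groups came from the titles of the records, 0 columns were left without a cell, and 1 cell whose title names the sagittal suture and whose description names a PF plate was counted as sagittal. Some results that the rule names are not reported here. Alternatives were Rn45s in the totals, TMM factors (edgeR 4.0.16), a pseudocount of 10 CPM, cells with at least 1500 genes and 50000 reads, equal weight per cell, thinning to 100000 reads, means of log-scaled values, leaving out the highest cell, no filter or 50 CPM, and single plates. The code that makes the calls, not the calls themselves, was checked on simulated counts. Python 3.11.15 with numpy 2.4.6, pandas 2.3.3 and scipy 1.17.1 was used.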

Additional observations from a re-analysis of the deposited data

How the results depend on the processing

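With 1 sample per suture, the limits are the 2 plates, the 16 cells of COR plate 1 and reads in place of molecules. The counts of genes at least 2-fold higher, 517 in PF and 605 in COR, became 292 and 322 with a pseudocount of 10 CPM. They became 139 and 169 with a minimum of 50 CPM. PF fell to 335 without the highest cell of each plate, and COR came to 912 with no minimum and to 1059 with COR plate 1 left out. From means of log-scaled values over cells, 2 and 14 genes differed by at least 1 in mean log2 value, or 3 and 13 in thinned cells. That measure is a difference of mean logs, with a larger added constant than 1 CPM, and not a 2-fold ratio of CPM. The fall to 2 and 14 therefore does not count genes that lost a 2-fold ratio. Genes of one sign, 1388 in PF and 1693 in COR, became 612 and 784 at 50 CPM, 891 and 2982 from log-scaled means, and 917 and 2561 from log-scaled means of thinned cells, the last and the omission of COR plate 1 being alternatives chosen after seeing the data. Under the other alternatives these 4 counts stayed within 1.5 times.

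Counts of list members moved too. On the log scale over cells, members higher in COR went from 19 to 31 of the G2 and M phase genes, from 7 to 11 of the Wnt genes and from 4 to 9 of the proteases, and contractile genes higher in PF from 8 to 3. At 50 CPM the G2 and M phase genes higher in COR were 9. Elastic fibre genes higher in PF went from 7 to 11 with TMM, and Wnt genes higher in PF from 11 to 2 at 50 CPM.

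Of the genes named, these turned direction. From log-scaled means over cells the differences in mean log2 value were -0.0426 for Bgn, -0.31 for Col1a1, -0.0096 for Col1a2 and -0.0274 for Fgfr1. With thinned cells these differences were -0.17 for Bgn, -0.43 for Col1a1 and -0.17 for Col1a2. With equal weight for each cell the log2 ratios were 0.12 for Pus7, 0.20 for Runx2 and 0.67 for Sufu, and Sufu was at 0.63 in thinned cells. The cause was not tested. No paired analysis was possible because the results come from no test and plate numbers do not pair the sutures.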
